A study of Mus musculus with 2 samples.

Results

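The T cell receptor V genes are the 169 mouse genes whose symbols begin with Trav, Trdv or Trbv, taken from the 55413 genes that GENCODE M21 places on the 21 main chromosomes of mm10. On chromosome 14 lie 128 Trav and 6 Trdv genes, which share the Tcra/d locus, and on chromosome 6 lie 35 Trbv genes, which form the Tcrb locus. Of the 169 genes, 135 are annotated as V genes and 34 as V pseudogenes. CTCF binding at these genes was measured by chromatin immunoprecipitation and sequencing (ChIP-seq) in limbs of B6NCrl mouse embryos at 14.5 days, males and females pooled. Powdered limbs from several dissections made up 1 biosample, from which both libraries (replicate 1 and replicate 2) came, and there is 1 group with no genotype or treatment contrast. The spread between the 2 libraries may therefore be technical, and no comparison between groups could be tested. Peak lists do not report expression, so the limb label was not checked against marker genes. The limb is a mixture of cell types, and in such bulk tissue fewer cells with CTCF at a site and less CTCF per cell cannot be told apart.

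T cell receptor genes are assembled in developing T cells by V(D)J recombination. The RAG recombinase joins 1 V gene segment to a J segment in Tcra, and to D and J segments in Tcrb and Tcrd. Tcra and Tcrb encode the 2 chains of the common T cell receptor, and Tcrd, nested inside Tcra, encodes a chain of the gamma delta receptor. The V genes are spread over a long array and must come close to the D or J segments. CTCF, a zinc finger protein that stops the cohesin ring as it extrudes loops, is known to bind these loci. It is also known to contribute to their folding in thymocytes. A CTCF motif has a direction, and loops known from other work mostly join motifs that point towards each other. Limb tissue is not a site of this recombination, so the lists describe the loci outside their usual setting.

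The site sequences come from the GRCm38.p6 reference (mm10), are written 5′ to 3′ on the strand named, and show positions 6 to 17 of the 20-base motif in capitals, the stretch between the outermost positions that carry at least 1 bit of information. The motif was learned from the strongest 1000 peaks of odd-numbered autosomes, which leaves out chromosomes 6 and 14, and its consensus heads the list for comparison. A motif at a peak was the best match on either strand with its centre within 50 bp of the summit, at a score that 5% of windows 1 kb away reached. The first set holds the strongest sites of the Tcra/d V array and those that follow it towards and past Trac, the constant gene.
Learned consensus: tgtggCCACCAGGGGGCgct
Before Trav17, minus strand, chr14:53804424-53804443: tatgaACACTAGAGGGCagc
At Trav17, plus strand, chr14:53806397-53806416: tttgaCCACAAGGGGGCact
Before Trdv4, plus strand, chr14:54059959-54059978: ggggaCCACTAGATGGCagc
Before Trdv4, plus strand, chr14:54064708-54064727: tttgaACACTAGGGGGCaat
Before Traj61, minus strand, chr14:54153031-54153050: ttagaGCAGCAGGGGGCgct
Past Trac, plus strand, chr14:54228080-54228099: ggtagCCACACGGGGGCagc
Within Dad1, plus strand, chr14:54239234-54239253: tgcatCCACTAGATGGCggc

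The second set shows sites upstream of Trav genes that duplication has copied. The Trav3, Trav6 and Trav12 sites are just upstream and show copies with the same letters and different peaks. The Trav16 sites lie 1.65 to 1.76 kb upstream, each with an optimal peak. All sites of this set are on the plus strand, which is the strand of these genes.
Trav3-3, chr14:53665834-53665853: gctgtCCACTAGGGGGCaga
Trav3d-3 and Trav3n-3: gctgtCCACTAGGGGGCaga
Trav3-4 (chr14:53776870-53776889) and Trav3-1: gctgtCCACAAGGGGGCaga
Trav6n-6 (chr14:53132564-53132583), Trav6d-6 and Trav6-6: cctgtCCACCAGGGGGCgca
Trav12-1 (chr14:53538077-53538096), Trav12-2 and Trav12-3: ggaaaCCAGCAGAGGGCgct
Before Trav16d-dv11, chr14:53045524-53045543: aggaaCCACAAGGGGGAggt
Before Trav16n, chr14:53349309-53349328: aggaaCCACAAGGGGGAggc
Before Trav16, chr14:53741451-53741470: aggaaCCACAAGGGGGAggc

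The third set gives Tcrb sites. Those among the V genes lie on the plus strand and the one beside Trbv31 on the minus strand. The V array sites nearest to Trbv20 and Trbv28, also on the plus strand, are not printed.
Past Trbv1, plus strand, chr6:40893718-40893737: tctttCCACCAGGGGGCacc
Before Trbv4, plus strand, chr6:41055743-41055762: actggCCACAAGGGGGAgct
Before Trbv10, plus strand, chr6:41091300-41091319: catggCCACAAGATGGCact
Before Trbv12-1, plus strand, chr6:41113048-41113067: gctgaTCACTAGGTGGCgct
Before Trbv12-2, plus strand, chr6:41118352-41118371: gctgcACATTAGGGGGCgct
Past Trbv14, plus strand, chr6:41137168-41137187: actggCCACTAGAGGGCact
Beside Trbv31, minus strand, chr6:41556571-41556590: ttcttCCACAAGAGGGCaca

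CTCF peaks were unevenly spread over the Tcra/d locus. Few peaks, all weak, lay among the distal V genes and the d and n copies described below. Peaks among the plain copies were more numerous but mostly weak too, and strong ones lay at the 3′ end of the locus. The peaks were those of the authors' optimal list, which combines both libraries and holds 49970 peaks, and the signal of a peak is the authors' deposited value for the pooled libraries. From 200 kb before the first to 200 kb past the last V gene, 33 optimal peaks lay around Tcra/d and 13 around Tcrb. Over the genome there were 18.9 optimal peaks per Mb, with a median pooled signal of 58.4 and quartiles of 29.8 and 142. The Tcra/d V array, from Trav1 to Trdv4, held 19 peaks in 1.65 Mb, or 11.5 per Mb, with a median signal of 37.2 and a range from 16.5 to 300. In the replicates' own lists their medians were 18.4 in replicate 1 and 18.2 in replicate 2, beside 30.6 and 29.1 over all optimal peaks. Of the 19, 7 exceeded the median of all optimal peaks.

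**Figure D1:**
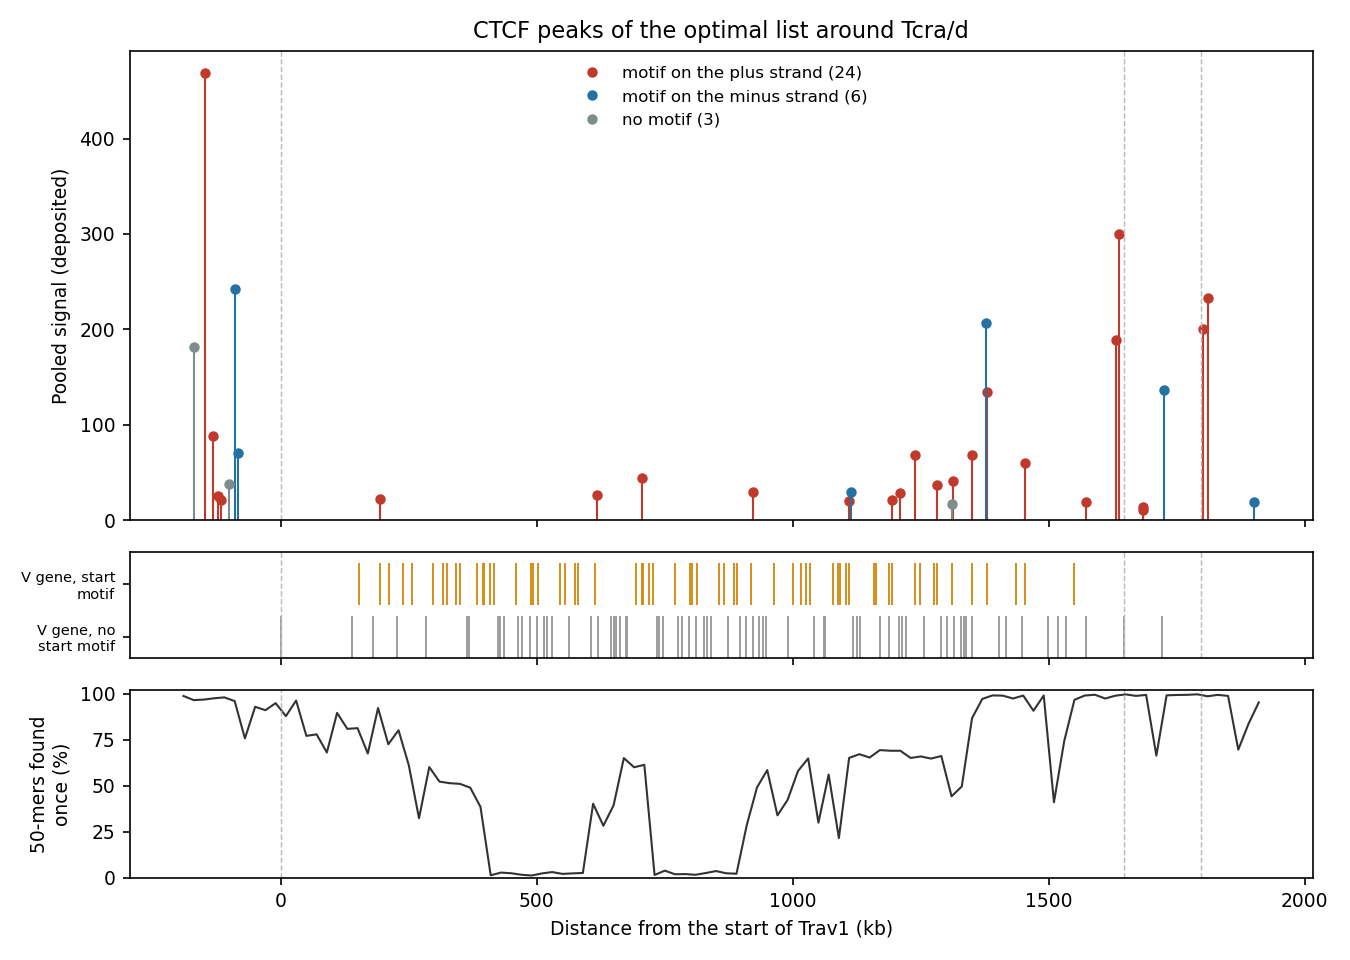
Pooled signal of the 33 optimal peaks around Tcra/d against the distance from the start of Trav1 in kb (top, coloured by the strand of the motif), the V genes with and without a CTCF motif at their start (middle), and the percentage of 50-base words found once on the chromosome in bins of 20 kb (bottom); dashed lines bound the V array and the D, J and constant end. The tall peaks stand in the flanks, in the last part of the V array and before Traj61 in the D, J and constant end. The middle of the array, where few words are found once, holds few and low peaks.

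The array was read in 5 blocks by the names of its genes. Mouse Trav genes were copied in large units, so that many families have a "d" copy (such as Trav3d-3), an "n" copy (Trav3n-3) and a plain copy (Trav3-3), which follow each other along the chromosome. The stretch from Trav1 to Trav6-2 held 1 peak in 240 kb, and before it no optimal summit was found for 279 kb. The d block, from Trav7d-2 to Trav15d-3, held 1 peak in 415 kb for 39 V genes, and the n block, from Trav7n-4 to Trav15n-3, held 2 in 293 kb for 34. The plain block, from Trav7-2 to Trav15-3, held 8 in 391.9 kb for 38 V genes, at 20.4 per Mb. The last block, from Trav3-4 to Trdv4, held 7 in 308 kb for 14 V genes, at 22.7 per Mb, and its median signal of 135 stood above the 28.8 of the plain block. The densities of the plain and last blocks were thus close to that of the genome, while the first 3 blocks were sparser, at 4.17, 2.41 and 6.83 per Mb. The longest distance between neighbouring summits within the array was 423 kb.

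The share of the reference that occurs once changed along the same blocks. It was measured as the percentage of 50-base words found a single time on their chromosome, counting both strands, and was 81.0% in the first block, 24.8% in the d block, 22.0% in the n block, 56.3% in the plain block and 91.7% in the last. Over the whole Tcra/d V array it was 52.5%, and over the Tcrb V array 85.1%. No source used here says how the authors placed reads that match several copies, and the part of repeated sequence in the low peak density was not tested.

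The strongest peaks of the Tcra/d V array lay in its last block. The strongest, at chr14:54064725 in intergenic sequence 10.2 kb before Trdv4, had a pooled signal of 300, with 149 in replicate 1 and 151 in replicate 2. A second, 4.76 kb further from Trdv4 at position 54059966, had 188, with 96.5 and 88.9. Both motifs pointed on the plus strand, towards the D and J segments, and the stronger summit lay 48.7 kb before Trdd1, the first D segment. The gene Trdv4, a V segment used mainly with Tcrd, is the last V gene of the array and had no optimal summit within 1 kb of its start. A pair of peaks also stood before Trav17. The one at position 53804436, 2.20 kb upstream, had a signal of 207 (121 and 85.2 in the replicates) and a motif on the minus strand. The one at position 53806402, at -237 bp from the start, had 135 (75.7 and 61.2) and a motif on the plus strand, so that the 2 motifs, 1.97 kb apart, point away from each other. The fifth strongest of the array, at Trav3-3, had 68.0.

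Between the end of the V array and Trac, 1 of 3 peaks was strong. At chr14:54153034 the pooled signal was 136, with 68.7 in replicate 1 and 64.9 in replicate 2. This summit lay in intergenic sequence 1.97 kb before Traj61, the first J segment of the alpha chain, and 4.17 kb past Trdc, the constant gene of the delta chain. It falls in the stretch known for the T early alpha (TEA) promoter, from which germline transcription of the J segments starts in thymocytes. Its motif was on the minus strand, opposite to the 2 strong motifs before Trdv4. Trdv5, the only V gene of the locus on the minus strand had its start 3.74 kb from the summit. The 2 remaining peaks, at 54111151 and 54111711 in an intron of the long RNA gene Gm30275, had signals of 10.99 and 13.8, below which under 1% of the optimal peaks lay, and the second had no summit within 100 bp in the replicate 1 list. They lay close to Trdd1, 2.32 kb before its start for the first of them.

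The J array itself held no optimal peak. From the summit before Traj61 to the next, 75.1 kb further, lay the Traj segments and Trac, and 0 of the 62 J genes, 0 of the 2 D genes and 0 of the 2 constant genes of Tcra/d had an optimal summit within 1 kb of their start, beside 14.8% of all genes. Past Trac, whose 3′ side is known for the T cell receptor alpha enhancer, 2 strong peaks followed. The first, 3.91 kb past the end of Trac at position 54228111, had a signal of 200.8 (121 and 83.6 in the replicates). The second, at position 54239241 in an intron of Dad1, a broadly expressed gene of protein glycosylation, had 232 (133 and 96.8). Both motifs were on the plus strand, and replicate 1 was the higher library at both. In the 5′ flank the strongest of 8 peaks, 469 (241 and 226), stood at position 52279474 where the starts of Rab2b and Tox4 meet, and it exceeded every peak within the locus.

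In the optimal list, CTCF peaks in the Tcrb V array were about as dense as in the genome, though their number varied with the list used. The strongest of them was below the 3 strongest of the Tcra/d V array. The array, from Trbv1 to Trbv30, held 8 peaks in 391 kb, or 20.5 per Mb, with a median signal of 50.01 and a range from 20.6 to 173. Replicate medians were 28.5 and 23.7. No optimal peak lay in the 200 kb before Trbv1, nor in the 251 kb between Trbv30 and Trbd1, a stretch known for trypsinogen genes, so that 294 kb separated the last V array summit from the next one. The strongest peak, 173 (86.9 and 86.2), lay at chr6:41137177 in repeat-masked intergenic sequence, 1.56 kb past the end of Trbv14. Those that followed were before Trbv12-1 with 98.5 (55.5 and 40.6), before Trbv4 with 89.9 (39.3 and 51.5), before Trbv12-2 with 52.3 (29.3 and 21.3) and before Trbv10 with 47.7 (20.7 and 26.1). The replicates did not agree on the order of Trbv12-1 and Trbv4, since replicate 1 put the first higher and replicate 2 the second.

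**Figure D2:**
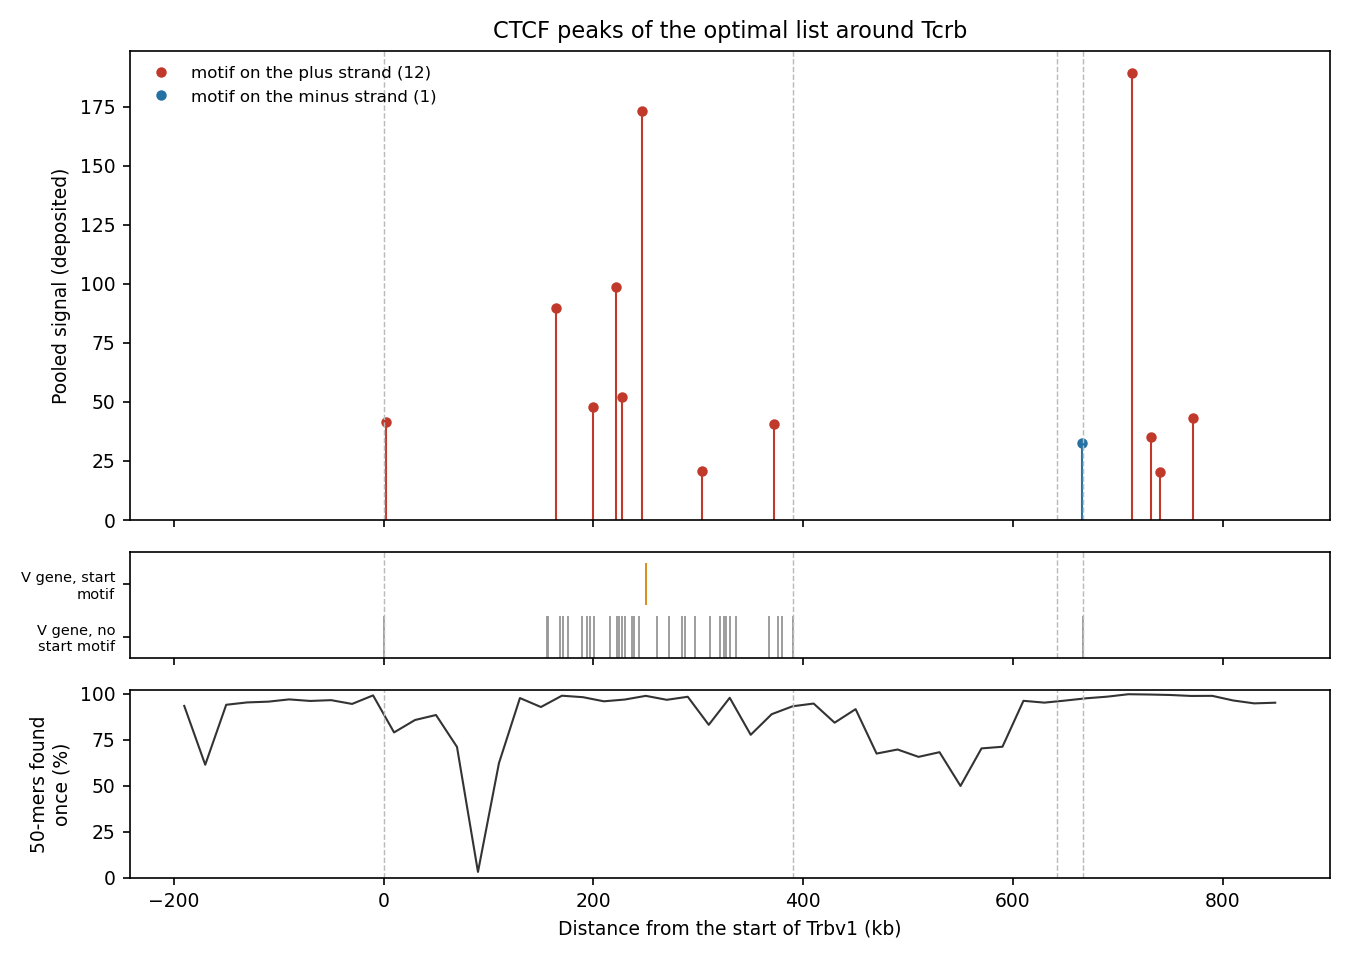
Pooled signal of the 13 optimal peaks around Tcrb against the distance from the start of Trbv1 in kb (top), the V genes with and without a start motif (middle) and the percentage of 50-base words found once (bottom); dashed lines bound the V array, the stretch from Trbv30 to Trbd1 and the D, J and constant end. All 8 V array motifs are on the plus strand, the peak beside Trbv31 is the only one with a minus-strand motif, and no peak stands before Trbv1 or between Trbv30 and Trbd1.

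The D, J and constant end of Tcrb, 25.3 kb long, held a single peak. At chr6:41556609, between Trbc2 and Trbv31, it had a signal of 32.5, with 20.3 in replicate 1 and 12.3 in replicate 2. Trbv31 is the only Tcrb V gene past the constant genes and the only one on the minus strand, and the summit lay 1.08 kb past its 3′ end. Its motif, on the minus strand, faced those of the V array. None of the 2 D, 14 J and 2 constant genes of Tcrb had an optimal summit within 1 kb of the start. The strongest of 4 peaks in the 3′ flank, 189 (90.5 and 99.4), stood 988 bp from the start of Ephb6, a receptor gene of the ephrin family.

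Motifs at the V array peaks pointed nearly all the same way as the V genes. Of the 27 V array peaks of both loci, 26 had a motif (96.3%), beside 80.9% of all optimal peaks. In Tcra/d 16 of 18 motifs (88.9%), and in Tcrb 8 of 8, were on the plus strand, which all V genes of the 2 arrays share, while 49.8% of the motifs of all optimal peaks were on the plus strand. The 2 exceptions were the peak 2.20 kb before Trav17 and one at position 53541840, 3.17 kb before Trav13-1, with a signal of 29.3 (8.50 and 19.6). The peak without a motif was the weakest of the array, at Trav8-2, with 16.5. In the flanks of Tcra/d, which hold none of the V genes, 4 of 6 motifs on the 5′ side and 2 of 3 on the 3′ side were on the plus strand. In the 3′ flank of Tcrb 4 of 4 were. Several sites are copies of one another, and peaks are not replicates, so these shares are descriptions.

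At the V genes themselves, 14 of 169 (8.28%) had an optimal summit within 1 kb of the gene start, beside 14.8% of all genes. They were 11 of 134 in Tcra/d (8.21%, exact Clopper-Pearson 95% interval 4.17 to 14.2%, counting error only) and 3 of 35 in Tcrb (8.57%, 1.80 to 23.1%). Many of these genes are copies of one another and not independent cases, as the intervals assume. The intervals therefore do not test a difference from all genes. Without replicate 1, the strongest 49970 peaks of replicate 2 gave 6 of 35 in Tcrb (17.1%), and without replicate 2 the count was 3. The 14.8% of all genes comes from the optimal list, so it is not a like comparison for these single-replicate counts. All 14 summits were upstream of the start. In Tcra/d they lay at -237 to -61 bp, with a median of -104 bp, and in Tcrb at -607 to -477 bp. The other 8 Tcra/d and 5 Tcrb V array peaks lay more than 1 kb from the start of every one of the 169 genes. GENCODE lists 2 further V genes in the Tcra/d array under other names, C920008G01Rik and B230359F08Rik, which the choice by symbol leaves out, and the nearest optimal summits were 25.1 and 9.08 kb from their starts. In Tcra/d a start peak was found at 9 of the 113 genes not annotated as pseudogenes (7.96%) and 2 of 21 pseudogenes (9.52%).

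By strength, the Tcra/d V genes with a start peak were Trav17, Trav3-3, Trav3-4, Trdv1, Trav6n-6, Trav6-7-dv9, Trav5-1, Trav12-3, Trav12-1, Trdv3 and Trav8-2. After Trav17 (135) came Trav3-3 with 68.0 (31.8 in replicate 1 and 35.9 in replicate 2) and Trav3-4 with 67.9 (34.1 and 34.4), which differ by less than their replicates do. Trdv1, a V gene of the delta chain, had 60.1 (30.0 and 30.4), and Trav6n-6 had 43.6 (26.1 and 18.4). Trav6-7-dv9, a V gene that both chains can use, had 37.2 (18.4 and 17.4). The remaining 5 had signals from 16.5 to 22.3, all below the lower quartile of the optimal list. Among these weak ones the libraries went different ways. Trav12-1 had 14.1 in replicate 1 and 6.18 in replicate 2, and Trav12-3 had 6.62 and 13.2. At Trav8-2 the summit was found in replicate 1 alone (11.2).

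**Figure D3:**
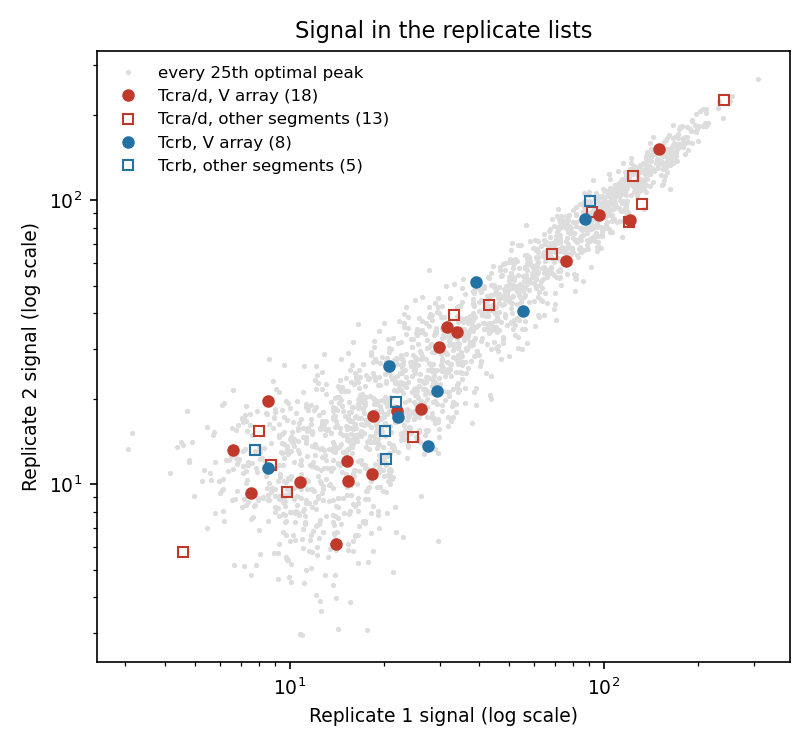
Signal in replicate 1 against replicate 2, both on log axes and each on its own list's scale, for the V array peaks (filled) and the peaks of the other segments (open) of both loci that were found in both lists, over every 25th optimal peak (grey). The V array peaks spread along the grey cloud. Of the strong ones, those before Trdv4 and past Trbv14 lie near its axis. The one 2.20 kb before Trav17 (121 and 85.2) lies on the replicate 1 side. Trav12-1 (14.1 and 6.18) and Trav12-3 (6.62 and 13.2) lie on opposite sides of the axis.

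Replicate spread over the V arrays was close to that of all peaks. The SD of the log2 ratio of replicate 1 to replicate 2, each scaled by its median over the optimal peaks, was 0.57 over the 18 Tcra/d V array peaks found in both full lists and 0.51 over the 8 of Tcrb, beside 0.50 over all optimal peaks. Of the 19 Tcra/d V array peaks, 14 (73.7%) were among the strongest 49970 of both replicates, and of the 8 in Tcrb, 7 were (87.5%), beside 81.2% of all optimal peaks. Within the plain block the SD was 0.82, and in the last block 0.26, where 6 of 7 peaks exceeded the genome's median signal.

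Trav genes carried a CTCF motif at their start more often than a peak. Among 128, 61 had a motif in the narrower window given below, and 9 had a peak within 1 kb of the start. Of the 6 Trdv genes, 1 had a start motif (Trdv1) and 2 a start peak (Trdv1 and Trdv3). From 250 bases before to 50 after the gene start, a motif at a score that 1% of windows 1 kb from peaks reached was found at 62 of 134 Tcra/d V genes (46.3%), beside 3.3% of all genes. The windows 1 kb from peaks were narrower than the start window, so 1% is not the rate to expect at gene starts. All 62 were on the strand of the gene, beside 58.3% for all genes with such a motif. Motif centres lay at -240 to -40 bases from the start, with a median of -151. In Tcrb 1 of 35 V genes (2.86%), Trbv15, had one, so that the 3 Tcrb start peaks belong to sites further upstream. The letters were shared: the 62 genes held 29 distinct 20-base sites, 17 of them at 2 or more genes and covering 50 genes, so the genes are not independent cases. By annotation, 56 of the 113 genes not annotated as pseudogenes (49.6%) and 6 of 21 pseudogenes (28.6%) of Tcra/d had a start motif.

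**Figure D4:**
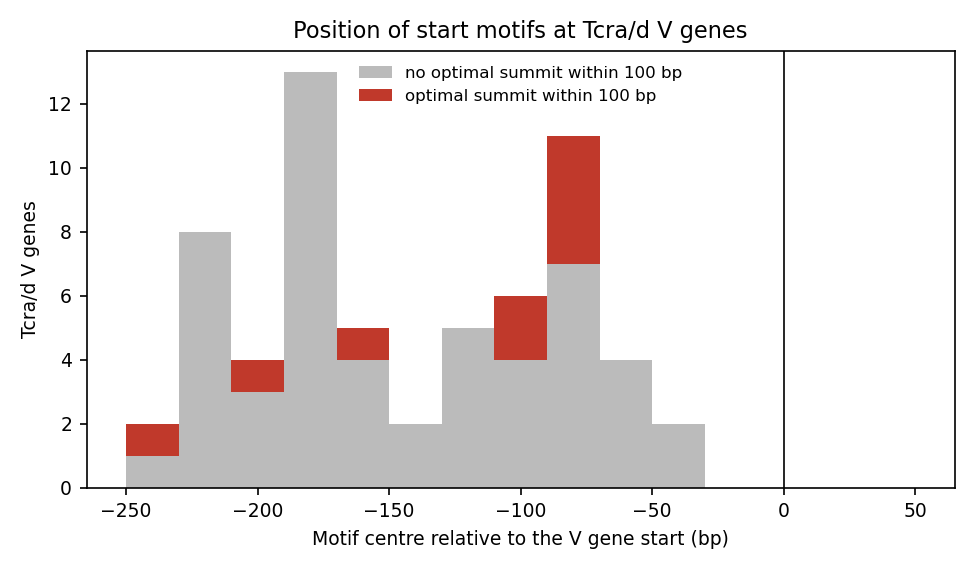
Number of Tcra/d V genes by the position of the start motif's centre relative to the gene start in bp, in bins of 20 bp, for motifs with (red) and without (grey) an optimal summit within 100 bp. All 62 motifs lie upstream of the start, between -240 and -40 bp, with the 9 that have a summit at -232 to -76 bp (median -104) and the 53 without at -240 to -40 bp (median -155).

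Of the 62 start motifs, 9 had an optimal summit within 100 bp and 53 did not, and the motif scores of both overlapped (medians 18.9 and 18.1, ranges 12.0 to 23.6 and 11.5 to 22.3). The share of 50-base words found once in the 401 bp around the motif was 62.5 to 100% (median 84.4%) where there was a summit, and 0 to 100% (median 14.2%) where there was none. Of 25 motifs whose surroundings had under 10% of such words, 0 had a summit in the optimal list and 0 in either of the full replicate lists, which run to 300000 peaks each. Between 10 and 50%, 0 of 9 had an optimal summit and 1 had a summit in a replicate list. Between 50 and 90% the counts were 6 and 13 of 19, and at 90% or above 3 and 6 of 9. A motif in sequence found once was not always a peak. Trav20, Trav6-4 and Trav6d-4, at 100, 93.8 and 93.8%, had no summit within 100 bp in either replicate list, at motif scores of 13.3, 19.7 and 17.7. These ranges and counts were set after the values had been seen, and whether the repeated sequence set the missing peaks was not tested.

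**Figure D5:**
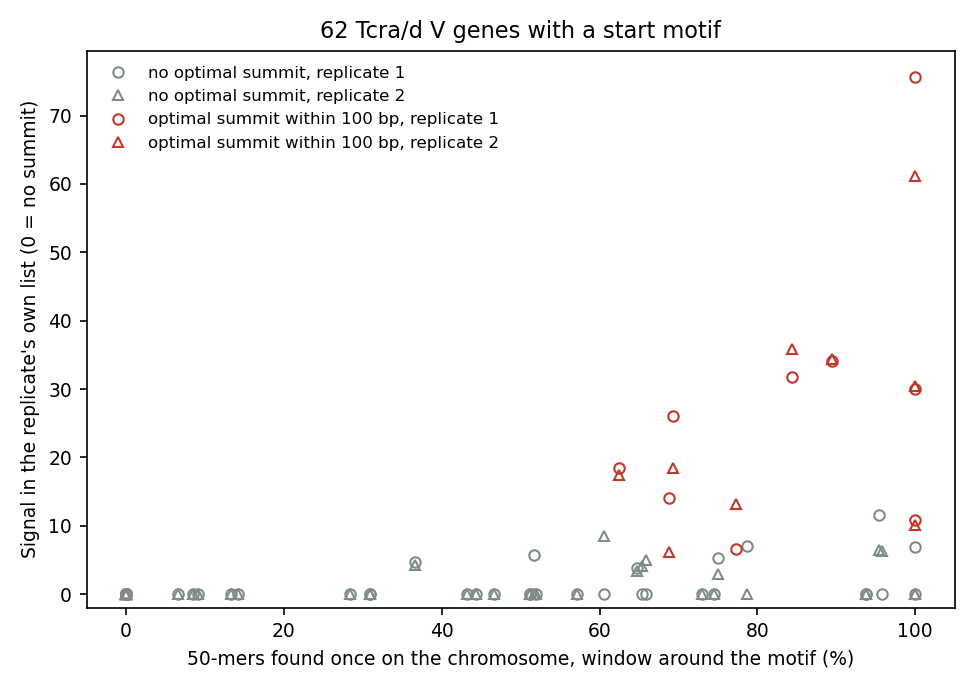
Signal within 100 bp of the start motif in replicate 1 (circles) and replicate 2 (triangles), 0 where the full list had no summit, against the percentage of 50-base words found once in the 401 bp around the motif, for the 62 Tcra/d V genes with a start motif, in red those with an optimal summit. No red symbol stands below 62.5%, all symbols below 10% are at 0, and grey symbols at 0 also stand at 93.8 and 100%.

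The d, n and plain copies were set side by side. Of 31 Trav families with all 3 copies, 13 had a start motif in each copy, and in 10 of these the 20 bases were the same in all 3. An optimal summit within 1 kb of the start was found at the plain copy in 5 families, at the n copy in 1, at the d copy in 0, and in no family at more than 1 copy. Over the 31 families the median share of words found once was 0% around the best match at the d copy, 0.85% at the n copy and 62.5% at the plain copy. In the Trav3-3 family the site printed above is the same in all 3 copies, with a peak of 68.0 at Trav3-3 (84.4% of words found once) and no summit in either replicate list at Trav3d-3 and Trav3n-3 (0% each). In the Trav6-6 family the order was different, and the peak of 43.6 stood at the n copy, Trav6n-6 (69.3%), while Trav6d-6 and Trav6-6 (0% each) had none. The families of Trav12-1, Trav12-3 and Trav6-7 had their peak at the plain copy, with shares of 68.8, 77.3 and 62.5%, and none at the d and n copies (0% each). Other families had a motif in all 3 copies, a higher share at 1 of them and no optimal peak at any. Trav11n had 78.7% and the other Trav11 copies 0%, Trav3-2 had 73.0% and its d and n copies 0%, and Trav7-5 had 57.1% beside 14.2 and 6.53%. The 3 Trav10 copies, at 51.7 to 60.5%, had no optimal peak either. In the Trav8-2 family, with shares of 74.4, 75 and 65.9% around the start motif of the d, n and plain copies, none of the 3 motifs had an optimal summit within 100 bp. Trav8n-2 had summits there of 5.34 in replicate 1 and 2.92 in replicate 2, and Trav8-2 had one of 5.06 in replicate 2 alone, its optimal summit (-70 bp) lying apart from its motif (-217 bp).

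Not every set of copies was split. The sites before Trav16d-dv11, Trav16n and Trav16, 1.76, 1.73 and 1.65 kb upstream of each start, all had an optimal peak. Their signals were 26.4 (15.3 and 10.3), 29.9 (18.2 and 10.9) and 40.5 (22.0 and 18.1), with 55.1, 53.1 and 73.3% of the words around the summit found once. The sites before Trav16n and Trav16 have the same 20 bases and that before Trav16d-dv11 ends in another base. Replicate 1 was the higher library at all 3, and the copy before Trav16 was the highest in both libraries.

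The same letters also gave different values where both copies were largely single. Trav3-1 and Trav3-4 share their 20-base site and lie 1.20 Mb apart, with 95.5 and 89.5% of the words around the motif found once. Trav3-4 had 34.1 in replicate 1 and 34.4 in replicate 2 and an optimal peak, and Trav3-1, near the distal end, had 11.5 and 6.48 and none. That gap is larger than the spread between the libraries at either gene, with only 2 libraries and no test. Among the 7 genes that share the Trav12 site, Trav12-1 and Trav12-3 had optimal peaks near 20 (20.3 and 20.9), Trav12-2 had 4.70 and 4.30 in the replicate lists alone (36.6% of words found once), and the d and n copies had no summit (0%).

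The first V genes and those on the opposite strand had no start peak. Trav1 was 84.1 kb and Trbv1 2.52 kb from the nearest optimal summit, Trdv5 3.74 kb and Trbv31 1.84 kb. None of these 4 had a start motif.

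Other receptor loci and T cell genes were counted the same way. Within 1 kb of the gene start an optimal summit was found at 5 of 185 Ighv genes (2.70%), 0 of 160 Igkv genes and 1 of 7 Trgv and Tcrg-V genes, which is Tcrg-V7. The 5 Ighv summits were all downstream of the gene start, unlike the 14 of the T cell receptor V genes. A start motif was found at 1 Ighv and 1 Igkv gene (0.541 and 0.625%), and at 1 of the 7 gamma genes. Among 13 genes of T cell receptor assembly and signalling, 2 had an optimal summit within 1 kb of a transcript start, beside 33.4% of protein-coding genes. They were Lck, a kinase that starts receptor signalling, with 153 (76.1 and 76.9), and Cd247, the zeta chain of the receptor complex, with 50.2 (18.1 and 28.4). The recombinase genes Rag1 and Rag2, the CD3 chains Cd3e, Cd3d and Cd3g, and Cd4, Cd8a and Cd8b1 had none.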

How the data were processed

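The deposited files were peak lists on mm10. Per the notes deposited with each library, the replicate lists came from each library's alignments, and the optimal and conservative lists from both replicate lists and a pooled list. No source used here names the aligner, peak caller, control, thresholds or normalization. Each peak carries the signal that the authors deposited, on the scale of its list, and the optimal list carries the signal of the pooled list at all 49970 peaks. Read depth is unknown.

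Genes came from GENCODE M21 and sequence from GRCm38.p6. Summits within 100 bp were matched between lists. The 20-base motif was refined in 10 rounds from the 10-base word most enriched at the strongest 1000 peaks, and motif search and matching were tested on simulated data. Named peaks were the 5 strongest of each V array, all peaks up to the constant genes and the strongest of each flank; named V genes were up to 10 per locus with the strongest start peak, the first, last and opposite-strand genes and the d, n and plain copies. A gene outside this rule that is named was chosen after its values were seen. Members and lists were chosen with earlier results of these data known. Software was Python 3.11.15, numpy 2.4.6, scipy 1.17.1, pandas 2.3.3 and pysam 0.24.0.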

Additional observations from a re-analysis of the deposited data

How the results depend on the processing

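Of 58 values under other settings, 42 stayed within their limits and 16 moved. With only the strongest 50% of optimal peaks, the Tcra/d V array held 7 peaks and its D, J and constant end 1, the Tcrb V array 3 and its D, J and constant end 0. V genes with a start peak were then 4 in Tcra/d and 1 in Tcrb, median signals were 135 and 98.5, and 100% of V array peaks had a motif. Dropping the weaker peaks lowers such counts and raises such medians by construction. With the conservative list the medians were 42.0 in Tcra/d and 44.7 in Tcrb, and 100% had a motif. V genes with a start peak were 9 in Tcra/d and 4 in Tcrb with that list. Tcrb V array peaks numbered 10 with it, 11 without replicate 1 and 7 without replicate 2, in place of 8. Tcra/d V array peaks numbered 16, 19 and 18, in place of 19. Peaks among the strongest of both replicates had a Tcra/d median of 51.9. Within 5 kb of the start, 22 of 134 Tcra/d and 13 of 35 Tcrb V genes had a summit. The share over all genes (14.8%) is given only for the full optimal list within 1 kb. It is not a like comparison for counts within 5 kb or with other lists. With the strongest peaks of a single replicate, Tcrb V genes with a start peak ranged from 3 to 6; the 6 came without replicate 1 and added Trbv2, Trbv19 and Trbv20, at signals of 10.7, 12.7 and 11.3 in replicate 2. Words of 36 or 100 bases in place of 50, an alternative added after seeing the data, put 27 and 22 start motifs under 10% in place of 25, with an optimal summit at 0 of them each time. No paired analysis was possible because both libraries belong to 1 group. Depth is unknown, so no limit of detection could be given.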
